A study of Mus musculus with 6 samples.

Results

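The genes described here encode the Wnt ligands, their receptors and antagonists, and the factors that act closest to them. They were 58 of the 24982 genes listed in these data. They were chosen by symbol, with earlier results of these data known. The set holds every gene named *Wnt*, *Fzd*, *Dkk*, *Sfrp* or *Rspo* with a number, together with *Lrp5*, *Lrp6*, *Axin1*, *Axin2*, *Lef1*, *Tcf7*, *Tcf7l1*, *Tcf7l2*, *Wif1*, *Sostdc1*, *Kremen1*, *Kremen2*, *Znrf3*, *Rnf43*, *Ror1*, *Ror2* and *Ryk*. Wnt proteins are secreted ligands that bind Frizzled receptors, and with the co-receptors Lrp5 and Lrp6 they keep beta-catenin from being degraded, so that it can act with TCF/LEF factors in the nucleus. Ror1, Ror2 and Ryk are alternative Wnt receptors, R-spondins strengthen the signal, and Dkk, Sfrp, Wif1 and Sostdc1 proteins restrain it outside the cell. In skin the pathway is known for its part in the formation and cycling of hair follicles and in the upkeep of epidermal stem cells.

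The study established keratinocyte lines from the skin of neonatal C57BL/6 mice and compared their transcriptomes by RNA-seq, with no treatment. The KSFM-Ca2+ cells were derived and kept in the low-calcium medium of that name. The DKSFM cells came from KSFM-Ca2+ cells that survived a change to the defined medium DKSFM and were kept there. There were 3 libraries of each line. The deposited description speaks of 2 lines, and the labels do not say whether the libraries of a group came from more than a single derivation. The medium, the adaptation to it and any selection of survivors cannot be told apart. Whether the replicates grew as separate cultures is not stated by the authors, so the p-values measure the spread between these libraries, which may be technical.

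The value listed for each gene was its mean read coverage per base, written to 1 decimal. Summed over genes, it came to 1601676, 1238411 and 1057750 in KSFM-Ca2+ replicates 1 to 3 and to 1174348, 1239438 and 1170675 in DKSFM replicates 1 to 3. Values were scaled between libraries, and the scaled value is called normalized coverage here. It is a value per base, so that levels of different genes can be set side by side. Genes that reached 0.5 on this scale in 3 or more libraries were tested with limma on log2(normalized coverage + 0.1), a scale that understates the change of genes with low coverage. A gene is called higher or lower in the DKSFM cells at an adjusted p under 0.01 and a change of at least 2-fold on that scale. Ratios given as x-fold are ratios of the mean normalized coverage of the lines. Positions are those of GENCODE M21 on GRCm38 (mm10).

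The identity of the cells was checked first. All 8 keratinocyte markers (*Krt5*, *Krt14*, *Trp63*, *Itga6*, *Itgb4*, *Col17a1*, *Cdh1* and *Dsp*) were present in every library, the lowest value being 134 for *Dsp* in KSFM-Ca2+ replicate 3. Their summed normalized coverage was 19497, 19774 and 19410 in the KSFM-Ca2+ libraries and 45638, 41693 and 46031 in the DKSFM libraries, and most of it came from *Krt14* and *Krt5*. The markers did not all rise, since *Itgb4* and *Cdh1* fell by less than 2-fold (log2 fold change -0.75 and -0.13). Of the genes widely used to follow the pathway in skin, *Axin2* was near the rounding step in both lines and *Sostdc1* was listed at 0 in the KSFM-Ca2+ cells.

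Markers of other cell types that skin holds were looked up as well. In the fibroblast list, 7 of 10 genes were listed at 0 in every library, the collagen genes *Col1a1*, *Col1a2* and *Col3a1* among them. Its sum, mostly *Twist1*, was 26.0, 26.3 and 26.5 in the KSFM-Ca2+ libraries and 14.1, 15.3 and 14.1 in the DKSFM libraries. *Twist2*, also of this list, was listed at 10, 7.4 and 6 and then at 0.1, 0 and 0 and was called lower (adjusted p = 4.52e-07 by limma), while *Pdgfra*, listed at 1.5, 0.9 and 1.1 and then at 2.2, 2.1 and 2.1, rose by less than 2-fold. The 7 melanocyte genes summed to 4.18, 3.99 and 4.64 in the KSFM-Ca2+ libraries and to 17.4, 18.9 and 18.5 in the DKSFM libraries. Nearly all of that was *Mitf*, while *Dct* and *Tyr* were listed at 0 everywhere. The 5 Merkel cell genes summed to 5.64, 5.18 and 3.57 against 8.78, 8.76 and 8.12, mostly *Sox2*, with *Atoh1* and *Piezo2* at 0. The 4 endothelial genes summed to 2.86, 3.19 and 3.33 against 8.35, 8.36 and 7.48, mostly *Pecam1*, with *Cdh5* at 0. The 5 immune cell genes, mostly *Cd74*, summed to 1.24, 1.59 and 1.90 against 0, 0.201 and 0, with *Cd3e* and *Adgre1* at 0. The 5 dermal papilla genes reached a sum of at most 0.214, from *Crabp1*, and the other 4 were at 0 in every library. Each list thus held genes at 0 in both lines, but *Twist1*, *Mitf*, *Sox2* and *Pecam1* were above 0 in both, and the sums of the fibroblast, melanocyte, Merkel, endothelial and immune lists differed between the lines. Their part in the results on Wnt genes was not tested.

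Of the 58 Wnt genes, 37 were listed above 0 in at least 1 library. The other 21 were listed at 0 in all 6 libraries. These were the ligand genes *Wnt1*, *Wnt2*, *Wnt2b*, *Wnt8a*, *Wnt8b*, *Wnt9b*, *Wnt10b* and *Wnt16*, all 4 R-spondin genes, the antagonist genes *Dkk1*, *Dkk2*, *Dkk4*, *Sfrp2*, *Sfrp4*, *Sfrp5* and *Wif1*, and *Kremen2* and *Lef1*. A listed 0 is read here as listed, not as absence. Of 8 genes in wide use as reference genes, 7 were listed at 21.3 or more in every library, and *Gusb* was listed at 54.9, 41.3 and 38.7 in the KSFM-Ca2+ libraries but at 0.1, 0.1 and 0.2 in those of the DKSFM line. *Gusb* and *Actb* were called lower in the DKSFM cells (adjusted p = 8.88e-09 and 5.82e-06 by limma), *Actb* with a log2 fold change of -1.01. *Gapdh* fell by less than 2-fold (log2 fold change -0.61, adjusted p = 8.11e-07 by limma). The log2 fold changes of the rest lay between -0.11 and 0.052.

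Of the 37 genes above 0, 32 entered the test, and 24 of these reached 0.5 in every library. The other 8 (*Axin2*, *Rnf43*, *Sfrp1*, *Sostdc1*, *Ror2*, *Wnt5a*, *Wnt11* and *Fzd9*) did not. Of these, *Axin2*, *Rnf43*, *Sfrp1* and *Sostdc1* entered the test through the DKSFM libraries alone, and *Ror2* through the KSFM-Ca2+ libraries alone. The counts that follow are therefore a description. In the DKSFM cells 12 of the 32 tested Wnt genes (37.5%) were called higher, beside 13.2% of all 12450 tested genes, and 4 (12.5%) were called lower, beside 10.6% of all tested genes. At any fold 24 of the 32 (75.0%) passed the adjusted p, close to the 72.3% of all tested genes. The libraries of the lines did not overlap in 27 of the 32 (84.4%), near the 83.2% of all tested genes. On the log2 scale the median change was 0.37 for the 32 Wnt genes and -0.0029 for all tested genes. When 0.5 was asked of every library, 24 Wnt genes were left, with 7 called higher (29.2%, beside 9.24% of all genes then tested) and 3 lower (12.5%, beside 8.67%). The direction depended on the gene. In bulk RNA, fewer cells that express a gene and less RNA per cell cannot be told apart.

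**Figure D1:**
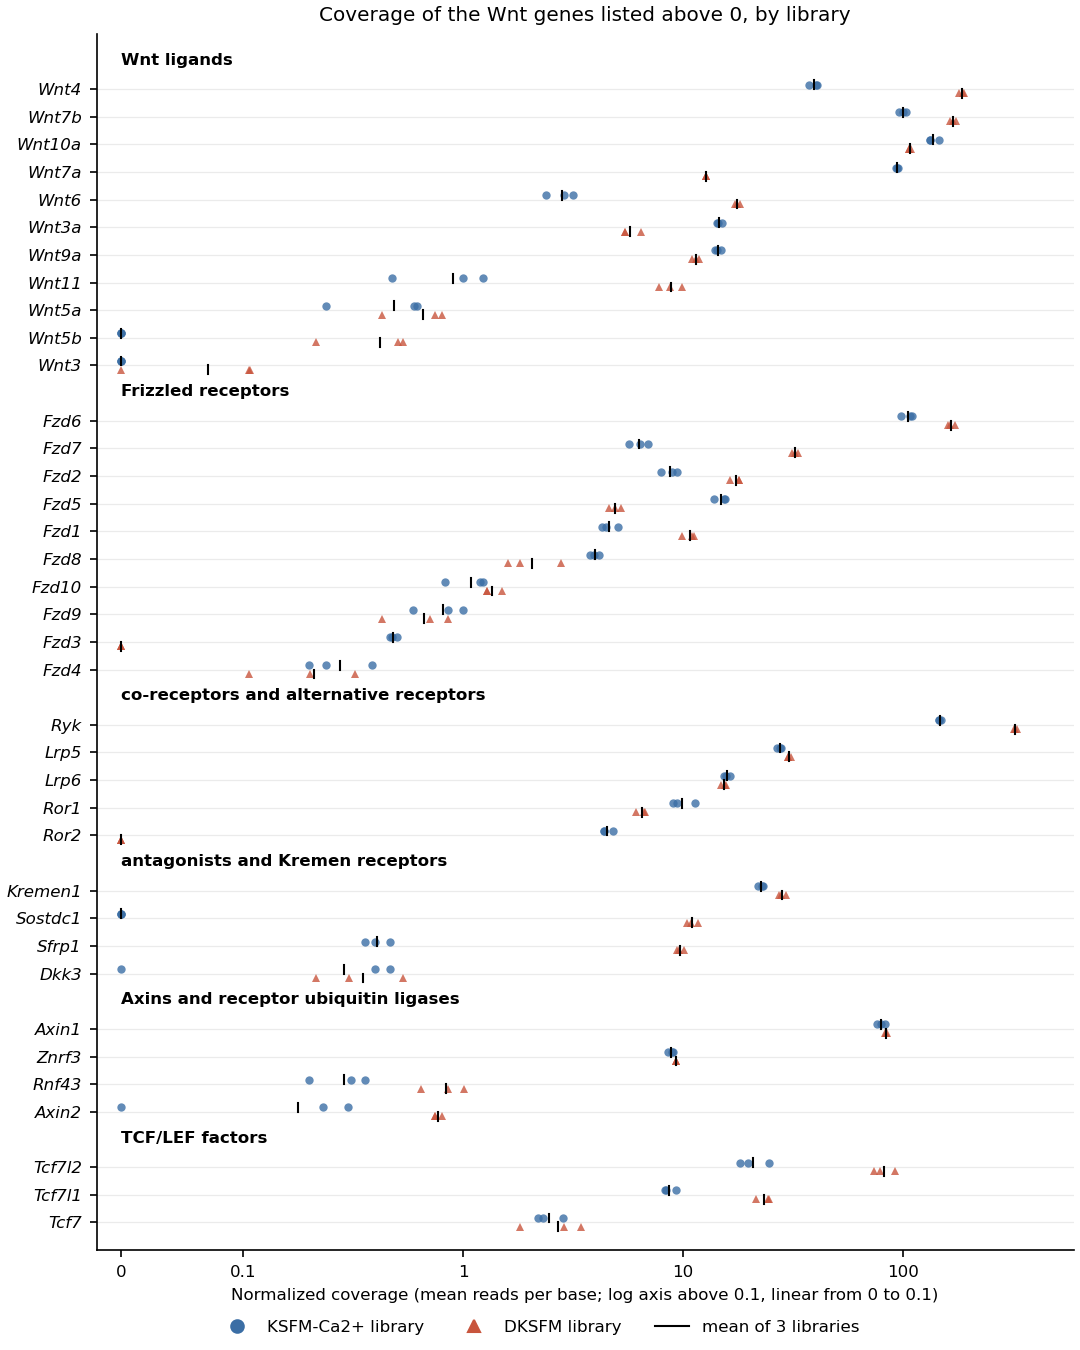
Normalized coverage (mean reads per base, log axis above 0.1) of the 37 Wnt genes listed above 0, ordered by role. Circles are KSFM-Ca2+ libraries, triangles are DKSFM libraries and bars are means of 3 libraries. *Ryk* had the highest mean in both lines, and *Sostdc1*, *Wnt5b*, *Wnt3*, *Ror2* and *Fzd3* were at 0 in all libraries of a single line.

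**Figure D2:**
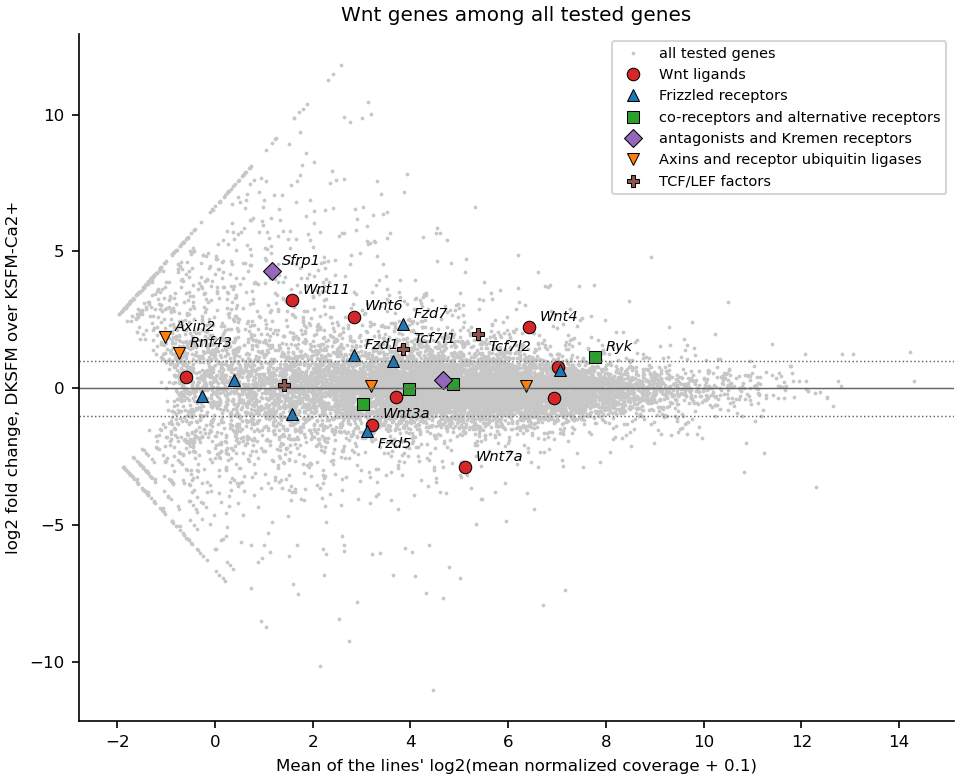
Log2 fold change (DKSFM over KSFM-Ca2+) against the mean log2 level of the lines for the 12450 tested genes (grey dots) and, by role, for the 30 tested Wnt genes above 0 in both lines. Dotted lines mark 2-fold, and names mark Wnt genes called higher or lower. The Wnt genes lie within the range of the other genes at their level.

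Of the 19 ligand genes 11 were listed above 0, and the order of the most abundant changed. Summed over the ligand genes, the normalized coverage was 421, 398 and 395 in the KSFM-Ca2+ libraries and 516, 522 and 526 in the DKSFM libraries, a ratio of 1.29. *Wnt10a*, *Wnt7b* and *Wnt7a* led in the KSFM-Ca2+ cells, with 34.0% ± 0.819, 24.7% ± 0.425 and 23.3% ± 0.716 of this sum (SD, n = 3 libraries), and *Wnt4* had 9.77% ± 0.448. In the DKSFM cells *Wnt4* led with 35.8% ± 0.971, followed by *Wnt7b* with 32.6% ± 0.846 and *Wnt10a* with 20.6% ± 0.133, while *Wnt7a* had 2.45% ± 0.0274. A modest rise of the total thus held a rise of *Wnt4* and *Wnt7b* and a fall of *Wnt7a* and *Wnt10a*.

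**Figure D3:**
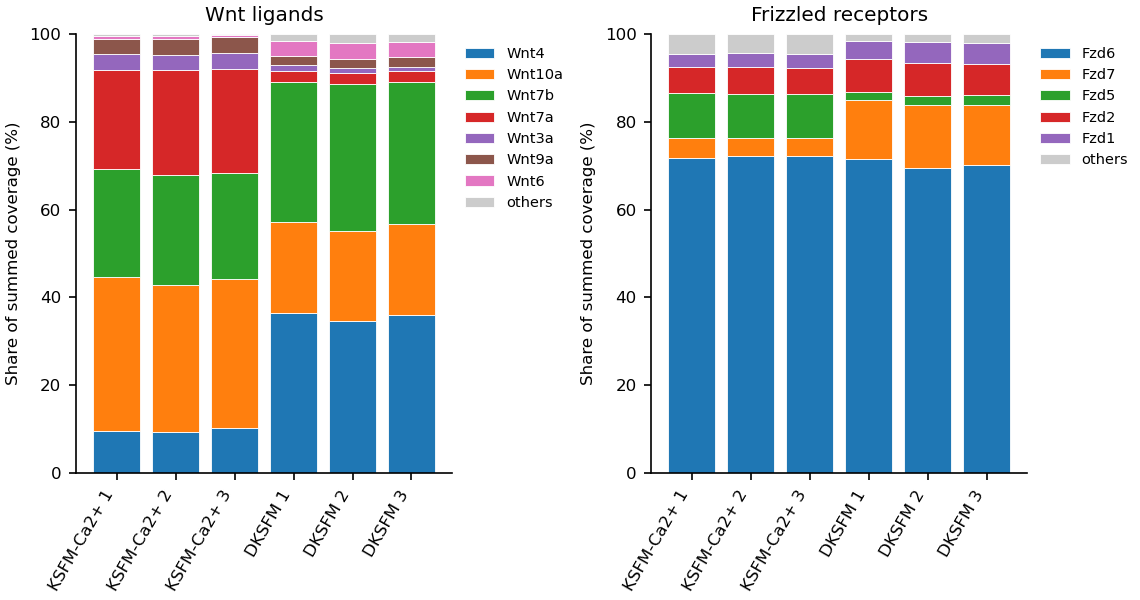
Share of the summed normalized coverage (%) of the ligand genes (left) and of the Frizzled genes (right) in each library. Each bar is a library, colours are genes, and grey is all remaining genes of the group. *Wnt4* made up 9.77% of the ligand sum in the KSFM-Ca2+ cells and 35.8% in the DKSFM cells on average, and *Fzd6* 71.9% and 70.3% of the Frizzled sum.

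*Wnt4* (chromosome 4 from 137277489 to 137299726) encodes a ligand best known from the development of kidney and reproductive tract. It had a normalized coverage of 40.4, 37.6 and 40.6 in the KSFM-Ca2+ libraries and of 188, 181 and 189.7 in the DKSFM libraries. Every DKSFM library lay far above every KSFM-Ca2+ library, by 4.71-fold between the means (log2 fold change 2.23, SE 0.041, adjusted p = 2.48e-09 by limma). Its level exceeded that of 60.8% of the tested genes in the KSFM-Ca2+ cells and 90.1% in the DKSFM cells. *Wnt7a* (chromosome 6 from 91363981 to 91411363), whose product is known for patterning the limb, went the other way. It had 94.6, 94.8 and 93.1 in the KSFM-Ca2+ libraries and 12.7, 12.8 and 12.7 in the DKSFM libraries, which was 7.39-fold lower with hardly any spread within either line (log2 fold change -2.88, SE 0.035, adjusted p = 4.55e-10 by limma). Its close relative *Wnt7b* (chromosome 15 from 85535437 to 85582473) had 104, 100.1 and 95.7 and then 164, 175 and 169.9. Those DKSFM values were all higher, by less than 2-fold (log2 fold change 0.76, SE 0.040, adjusted p = 5.21e-07 by limma).

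*Wnt10a* (chromosome 1 from 74791516 to 74804179) encodes a ligand whose loss is known to disturb teeth, hair and other skin appendages. It had 147, 133 and 133 in the KSFM-Ca2+ libraries and 106, 107 and 109 in the DKSFM libraries, a fall of less than 2-fold without overlap (log2 fold change -0.36, SE 0.043, adjusted p = 9.19e-05 by limma). *Wnt6* (chromosome 1 from 74771892 to 74785322) lies next to it, 6.19 kb away on the same strand, and moved in the opposite direction. It had 3.17, 2.89 and 2.38 in the KSFM-Ca2+ libraries and 17.6, 18.2 and 17.3 in the DKSFM libraries, or 6.29-fold more (log2 fold change 2.62, SE 0.11, adjusted p = 1.39e-07 by limma).

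*Wnt3a* and *Wnt9a* also lie side by side on chromosome 11, from 59248033 to 59290752 and from 59306928 to 59333552, and are read in opposite directions from a gap of 16.2 kb. *Wnt3a*, the ligand most used to switch on beta-catenin signalling in culture, had 15.1, 14.4 and 14.5 in the KSFM-Ca2+ libraries and 6.42, 5.44 and 5.45 in the DKSFM libraries. It was 2.54-fold lower there (log2 fold change -1.33, SE 0.081, adjusted p = 1.37e-06 by limma). *Wnt9a* had 14.8, 14.4 and 14.04 and 11.02, 11.5 and 11.9, lower as well but by less than 2-fold (log2 fold change -0.33, SE 0.057, adjusted p = 7.86e-04 by limma). At a lower level, *Wnt11* (chromosome 7 from 98835112 to 98855195), a ligand mostly linked to signalling without beta-catenin, had 1.24, 0.997 and 0.476 in the KSFM-Ca2+ libraries and 7.81, 9.87 and 8.76 in the DKSFM libraries. It was 9.76-fold higher in the DKSFM cells (log2 fold change 3.23, SE 0.29, adjusted p = 1.35e-05 by limma), with the widest interval among the called ligands, 2.56 to 3.90 (95%), and a log2 fold change of 2.77 and 2.38 with pseudocounts of 0.5 and 1. The remaining ligand genes were close to the rounding step of 0.1. *Wnt5a* was listed between 0.2 and 0.8 with overlap between the lines (adjusted p = 0.311 by limma). *Wnt5b* was listed at 0 in the KSFM-Ca2+ libraries but at 0.2, 0.5 and 0.5 in the DKSFM libraries, and *Wnt3* at 0 and at 0.1, 0 and 0.1; neither entered the test. Without a filter, and with 0.5 asked of 2 libraries once KSFM-Ca2+ replicate 2, KSFM-Ca2+ replicate 3 or DKSFM replicate 1 was left out, *Wnt5b* was tested and called higher (adjusted p = 4.06e-04, 0.00327, 0.00261 and 5.98e-04 by limma).

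The sequence before the start site is given for the 5 called ligand genes. The stretches come from RefSeq promoters on GRCm38.p6, cover up to 250 bases before the first start listed and leave out bases that GENCODE M21 places in an exon of a protein-coding gene. They read 5′ to 3′ along the gene, and capitals mark a match to CTTTGAT or CTTTGAA, forms of the letters that TCF/LEF factors bind, on either strand. *Wnt4*, *Wnt6* and *Wnt11* lie on the plus strand, *Wnt3a* and *Wnt7a* on the minus strand, and the stretch of *Wnt7a* also lies in a noncoding gene, *Gm30437*.
Wnt4, chr4:137277385-137277488: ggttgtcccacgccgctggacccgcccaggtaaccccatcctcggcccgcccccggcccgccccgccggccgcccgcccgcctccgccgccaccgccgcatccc
Wnt6, chr1:74771642-74771891: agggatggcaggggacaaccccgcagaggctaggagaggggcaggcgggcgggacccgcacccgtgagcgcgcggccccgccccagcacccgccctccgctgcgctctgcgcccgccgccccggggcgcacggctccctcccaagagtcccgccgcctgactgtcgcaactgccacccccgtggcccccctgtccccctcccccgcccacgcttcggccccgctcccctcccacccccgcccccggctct
Wnt11, chr7:98834862-98835111: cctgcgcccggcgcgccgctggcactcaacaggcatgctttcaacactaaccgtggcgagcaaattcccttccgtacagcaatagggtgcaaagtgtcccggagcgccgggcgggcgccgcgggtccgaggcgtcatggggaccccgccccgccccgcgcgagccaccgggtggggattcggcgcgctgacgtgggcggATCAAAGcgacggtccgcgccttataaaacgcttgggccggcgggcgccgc
Wnt3a, chr11:59290753-59291001: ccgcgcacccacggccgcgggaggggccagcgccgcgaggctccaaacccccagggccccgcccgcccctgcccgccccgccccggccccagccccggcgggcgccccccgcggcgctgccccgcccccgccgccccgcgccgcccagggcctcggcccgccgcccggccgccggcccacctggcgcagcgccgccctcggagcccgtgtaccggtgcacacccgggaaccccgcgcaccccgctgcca
Wnt7a, chr6:91411364-91411603: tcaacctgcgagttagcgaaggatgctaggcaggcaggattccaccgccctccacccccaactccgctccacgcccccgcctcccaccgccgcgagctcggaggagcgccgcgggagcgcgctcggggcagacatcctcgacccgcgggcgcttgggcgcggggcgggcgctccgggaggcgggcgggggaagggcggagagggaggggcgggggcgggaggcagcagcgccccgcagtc

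In the 250 bases before the start, CTTTGAT on either strand was found in 3.21% of the 32851 promoters of the table and CTTTGAA in 4.46%; the motifs share their first 6 letters but cannot match at the same place. Promoters of 38 of the Wnt genes, 47 in all, were looked up, and *Sostdc1*, *Sfrp1*, *Wnt10a* and *Wnt7b* were not among them; genes on chromosome 18, such as *Fzd8* and *Wnt8a*, were left out. CTTTGAT was found in 2 of the 47 (4.26%), for *Wnt11* and for a start within *Wnt5b*, and CTTTGAA in 1 (2.13%), for *Dkk1*, which was listed at 0 in every library. The match before *Wnt11* lay 45 to 51 bases before the start and was read on the strand opposite to the gene. The other 4 stretches shown had no match, nor had the promoter of *Axin2*. The windows of the called ligands were rich in G and C, with 85.2% in the window of *Wnt4*, 79.6% in that of *Wnt6*, 87.6% in that of *Wnt3a*, 77.6% in that of *Wnt7a* and 70.8% in that of *Wnt11*, where the median of all promoters was 52.4%. A match describes letters and is not a binding site, and ligands called higher and ligands called lower were alike GC-rich. The windows of ligand genes that were not called ranged from 48.4% for *Wnt8b* to 84.4% for *Wnt9a*. A high GC content was thus not particular to the called ligands.

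All 10 Frizzled genes were listed above 0, and their summed normalized coverage was 151, 154 and 136 in the KSFM-Ca2+ libraries and 242, 236 and 229.9 in the DKSFM libraries. Of the 8 tested, 2 were called higher (25.0%, beside 13.2% of all tested genes) and 1 lower (12.5%, beside 10.6%). Most of the sum came from *Fzd6* (chromosome 15 from 39006034 to 39038188), which is known for its part in the orientation of hair follicles. It had 108, 111 and 98.4 in the KSFM-Ca2+ libraries and 173, 164 and 161 in the DKSFM libraries, a rise of less than 2-fold (log2 fold change 0.65, SE 0.050, adjusted p = 5.69e-06 by limma). Its share of the Frizzled sum was 71.9% ± 0.265 and 70.3% ± 0.960, so the rest of the make-up changed among the less abundant receptors.

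*Fzd7* and *Fzd5*, both on chromosome 1 (from 59482424 to 59486955 and from 64730558 to 64737751), changed in opposite directions. *Fzd7*, a receptor found in many stem cells, had 6.96, 6.38 and 5.71 in the KSFM-Ca2+ libraries and 32.4, 33.3 and 31.5 in the DKSFM libraries. This was 5.11-fold higher (log2 fold change 2.34, SE 0.077, adjusted p = 4.56e-08 by limma) and took its share of the Frizzled sum from 4.31% ± 0.249 to 13.8% ± 0.374. *Fzd5* had 15.6, 15.4 and 13.8 in the KSFM-Ca2+ libraries and 4.60, 4.94 and 5.24 in the DKSFM libraries. It fell 3.03-fold (log2 fold change -1.58, SE 0.080, adjusted p = 4.78e-07 by limma), and its share was 10.1% ± 0.166 and then 2.09% ± 0.188. Behind *Fzd6*, the next receptor gene was *Fzd5* in the KSFM-Ca2+ cells and *Fzd7* in the DKSFM cells.

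*Fzd2* and *Fzd1*, the closest relatives of *Fzd7*, were higher in the DKSFM cells too. *Fzd1* (chromosome 5 from 4753839 to 4758035) had 4.48, 5.08 and 4.28 in the KSFM-Ca2+ libraries and 9.95, 11.3 and 11.01 in those of DKSFM (log2 fold change 1.20, SE 0.091, adjusted p = 4.99e-06 by limma). *Fzd2* (chromosome 11 from 102604396 to 102608058) had 8.97, 9.37 and 7.97 and 18.1, 17.9 and 16.5 (log2 fold change 0.99, SE 0.077, adjusted p = 5.97e-06 by limma). It lay at the 2-fold threshold, and it was called when median-of-ratios factors were used, when KSFM-Ca2+ replicate 1, KSFM-Ca2+ replicate 2 or DKSFM replicate 3 was left out (log2 fold change 1.01, 1.04 and 1.03) and in the libraries marked as combined (1.12), which hold a single KSFM-Ca2+ library. *Fzd8* had 3.94, 3.79 and 4.16 and 1.61, 1.81 and 2.78, a fall of less than 2-fold (log2 fold change -0.95, SE 0.19, adjusted p = 0.00194 by limma), and without DKSFM replicate 3, the highest of its line, it was called lower (log2 fold change -1.17). *Fzd10* and *Fzd9* had a normalized coverage of at most 1.51 and did not pass the adjusted p. *Fzd4*, listed between 0.1 and 0.5, and *Fzd3*, listed at 0 in the DKSFM libraries, were not tested; without a filter *Fzd3* was called lower (adjusted p = 2.39e-05 by limma).

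Among the receptors outside the Frizzled family, *Ryk* (chromosome 9 from 102834917 to 102908305), a transmembrane protein with a kinase-like domain that binds Wnt proteins, had the highest mean coverage of all 58 genes in both lines, although *Wnt10a* was slightly above it in KSFM-Ca2+ replicate 1. It had 146, 150.1 and 147 in the KSFM-Ca2+ libraries and 325, 331 and 321 in the DKSFM libraries. The lines were far apart compared with the spread within them, at 2.20-fold (log2 fold change 1.14, SE 0.027, adjusted p = 8.77e-09 by limma). *Ror2* (chromosome 13 from 53109312 to 53286124), a receptor tyrosine kinase that responds to Wnt5a, was listed at 6.2, 4.4 and 3.7 in the KSFM-Ca2+ libraries and at 0 in all 3 DKSFM libraries. It entered the test through the KSFM-Ca2+ libraries alone and was called lower (adjusted p = 5.49e-08 by limma). No fold is given against a line at 0, where the p-value of *Ror2* depends on the pseudocount too. The step of 0.1 is worth about 4.69 reads for its longest transcript at the read length of 85 bases. *Ror1*, its relative, was lower by less than 2-fold, with 9.05, 9.37 and 11.3 and 6.74, 6.65 and 6.09 (log2 fold change -0.60, SE 0.098, adjusted p = 5.94e-04 by limma).

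The co-receptors that Frizzled needs for beta-catenin signalling hardly differed. *Lrp5* (chromosome 19 from 3584828 to 3686564) had 27.99, 27.8 and 26.9 in the KSFM-Ca2+ libraries and 29.97, 30.1 and 31.1 in the DKSFM libraries. Its libraries did not overlap, yet the adjusted p missed the threshold (log2 fold change 0.14, SE 0.041, adjusted p = 0.0124 by limma). *Lrp6* (chromosome 6 from 134446476 to 134566965) had 16.3, 15.8 and 15.3 and 14.98, 15.5 and 15.7, with overlap between the lines (log2 fold change -0.037, SE 0.052, adjusted p = 0.530 by limma). The 95% interval of its log2 fold change, -0.16 to 0.083, lay well inside 2-fold.

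**Figure D4:**
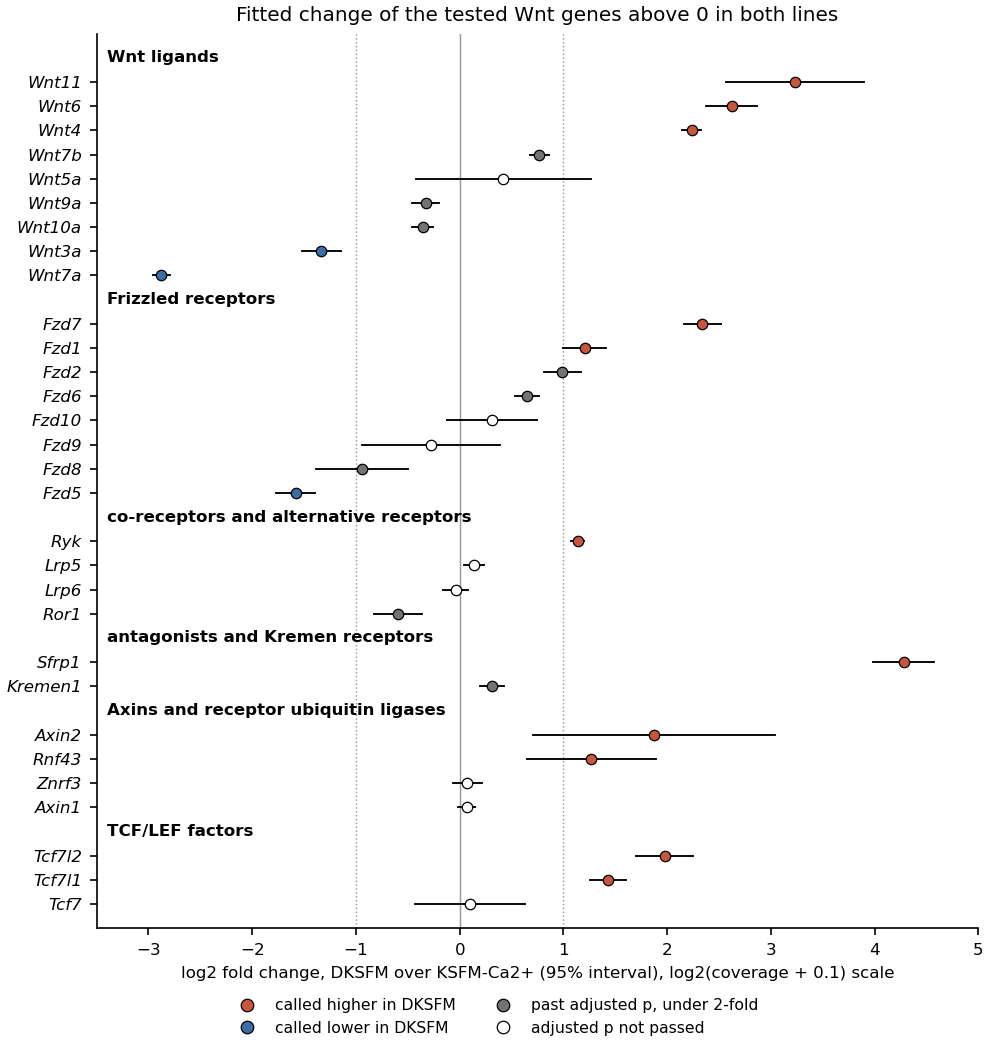
Fitted log2 fold change (DKSFM over KSFM-Ca2+, points) with its 95% interval (lines) for the 30 tested Wnt genes above 0 in both lines, by role. Filled colours mark genes called higher or lower, grey marks genes past the adjusted p at less than 2-fold, and white marks genes that did not pass it. Points range from -2.88 for *Wnt7a* to 4.28 for *Sfrp1*, and *Lrp5*, *Lrp6*, *Axin1* and *Znrf3* lie near 0.

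Secreted antagonists were scarce in the KSFM-Ca2+ cells. *Sostdc1* (chromosome 12 from 36314139 to 36318452), which encodes an inhibitor of both Wnt and BMP signalling known from tooth and hair development, was listed at 0 in all 3 KSFM-Ca2+ libraries but at 9.8, 11.6 and 10.2 in the DKSFM libraries. It entered the test through the DKSFM libraries alone and was called higher (adjusted p = 7.25e-09 by limma). No fold is given, since with a line at 0 both the fitted value and the p-value of *Sostdc1* depend on the pseudocount. For this transcript of a single annotated form the step of 0.1 is worth about 2.10 reads. *Sfrp1* (chromosome 8 from 23411502 to 23449632), whose product binds Wnt proteins outside the cell, was listed at 0.6, 0.4 and 0.3 and at 8.8, 9.5 and 9.5, so that a low level in the KSFM-Ca2+ cells became a level above that of 30.5% of the tested genes. The ratio of means was 23.9-fold (log2 fold change 4.28, SE 0.13, adjusted p = 2.54e-08 by limma), and the log2 fold change was 3.50 and 2.93 with pseudocounts of 0.5 and 1. The only other Dkk, Sfrp, Wif1 or Sostdc1 gene listed above 0 was *Dkk3*, between 0 and 0.6 with overlap, which was not tested. *Wif1* and *Dkk1* were among the genes at 0 in every library. *Kremen1* (chromosome 11 from 5191552 to 5261558), a receptor for Dkk proteins, had 23.3, 23.03 and 21.9 in the KSFM-Ca2+ libraries and 27.8, 27.4 and 29.4 in the DKSFM libraries, higher by less than 2-fold (log2 fold change 0.31, SE 0.049, adjusted p = 4.30e-04 by limma).

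The Axins are scaffolds of the complex that degrades beta-catenin. *Axin1* (chromosome 17 from 26138688 to 26195811), the form present in most cells, had 80.1, 82.8 and 76.7 in the KSFM-Ca2+ libraries and 82.7, 84.4 and 83.6 in the DKSFM libraries, with overlap (log2 fold change 0.066, SE 0.036, adjusted p = 0.127 by limma). *Axin2* (chromosome 11 from 108920349 to 108950783), which is widely read as a reporter of beta-catenin signalling, was listed at 0.3, 0.3 and 0 in the KSFM-Ca2+ libraries but at 0.7, 0.8 and 0.7 in the DKSFM libraries. All DKSFM libraries lay above all KSFM-Ca2+ libraries (log2 fold change 1.87, SE 0.50, adjusted p = 0.00853 by limma). Its level exceeded that of 2.75% of the tested genes in the KSFM-Ca2+ cells and 5.35% in the DKSFM cells. The step of 0.1 is worth about 5.01 reads of its longest transcript. The call was lost when KSFM-Ca2+ replicate 1 or DKSFM replicate 1, 2 or 3 was left out (adjusted p = 0.0121, 0.0266, 0.0332 and 0.0268 by limma), without a filter, without the intensity trend, and with larger pseudocounts, where the log2 fold change was 0.93 and 0.60. *Znrf3* and *Rnf43* encode ubiquitin ligases that remove Frizzled from the cell surface. *Znrf3* had 8.57 to 9.31 over the 6 libraries (adjusted p = 0.288 by limma). *Rnf43* was listed at 0.4, 0.2 and 0.3 and at 0.8, 1 and 0.6 and was called higher (log2 fold change 1.27, SE 0.27, adjusted p = 0.00239 by limma), but not without DKSFM replicate 2 (adjusted p = 0.01003) or in the libraries marked as combined (adjusted p = 0.0674 by limma), a comparison with a single KSFM-Ca2+ library, and with pseudocounts of 0.5 and 1 it was under 2-fold (log2 fold change 0.76 and 0.51).

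The TCF/LEF factors carry beta-catenin to its target genes. Summed over these genes, the normalized coverage was 29.8, 30.3 and 35.8 in the KSFM-Ca2+ libraries and 107, 97.6 and 120.0 in the DKSFM libraries, a ratio of 3.38, the largest among the role groups. *Tcf7l2* (chromosome 19 from 55741820 to 55933654), which encodes TCF4, had 18.2, 19.7 and 24.6 in the KSFM-Ca2+ libraries and 78.9, 74.2 and 92.5 in the DKSFM libraries. Replicate 3 was the highest of each line, and the lines were far apart (log2 fold change 1.97, SE 0.12, adjusted p = 1.34e-06 by limma). *Tcf7l1* (chromosome 6 from 72626378 to 72789254), which encodes TCF3, a factor known as a repressor in skin stem cells, had 9.28, 8.37 and 8.33 and 24.3, 21.6 and 24.6 (log2 fold change 1.43, SE 0.074, adjusted p = 5.18e-07 by limma). *Tcf7*, which encodes TCF1, had 1.81 to 3.42 over the 6 libraries with overlap (log2 fold change 0.099, SE 0.23, adjusted p = 0.7001 by limma). *Lef1*, a factor of the hair lineage, was listed at 0 in every library. The TCF3 and TCF4 genes were thus the members of this family called higher in the DKSFM cells.

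Between chromosomes the typical change differed, with a median log2 fold change of -0.43 on chromosome 1, the lowest, and 0.30 on chromosome 6, the highest, where *Wnt7a* and *Tcf7l1* lie. For this reason each called gene was set beside its surroundings. The median log2 fold change of the tested genes within 10 Mb was -0.53 around *Fzd7* (87 genes) and -0.29 around *Wnt6* (76 genes), while both genes were higher in the DKSFM cells. Around *Fzd5* it was -0.47 (92 genes), the same direction as the gene. Around *Wnt7a* it was 0.31 (124 genes), against a fall of the gene. For the other called Wnt genes it was 0.12 at *Wnt4*, -0.27 at *Wnt11*, -0.17 at *Wnt3a*, -0.22 at *Fzd1*, 0.095 at *Ryk*, -0.12 at *Ror2*, -0.28 at *Sfrp1*, 0.091 at *Sostdc1*, -0.052 at *Axin2*, -0.23 at *Rnf43*, 0.28 at *Tcf7l1* and -0.14 at *Tcf7l2*. Each of these medians was smaller in size than the change of the gene itself. Its part in the change of the gene was not tested. By annotated position *Tcf7l1*, *Wnt7b*, *Wnt5b*, *Kremen2* and *Rnf43* overlap other genes listed in these data. That of *Rnf43* lies on the same strand and the others on the opposite strand. Overlaps with annotated genes that these data do not list were not counted. Of the overlapping genes *Fbxl14*, at *Wnt5b*, was the only gene tested (log2 fold change -0.14), and how overlaps entered the coverage is not stated.

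Other genes of the pathway were described by 4 lists, 83 genes in all that are outside the 58. Of these, 61 were tested, with 19 called higher (31.1%) and 3 called lower (4.92%) in the DKSFM cells, beside 13.2% and 10.6% of all tested genes. These 61 had a median log2 fold change of 0.34. When 0.5 was asked of every library, 49 were left, with 9 called higher (18.4%, beside 9.24% of all genes) and 3 lower (6.12%, beside 8.67%). The called genes *Notum*, *Lrp4*, *Dact2*, *Dact3*, *Daam2*, *Frat1*, *Frat2*, *Tle2*, *Gpc3* and *Nkd2* did not reach it in every library. Neither did *Reck* and *Prickle4*, which were not called. Named from each list are those with the largest changes among the genes called, 3 in each direction, by a rule set before the files were read but, like the lists, with earlier results of these data known. *Ctnnb1*, *Wls*, *Tle3* and *Lgr4* are named besides, once their values had been seen.

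The intracellular core, from ligand release to the beta-catenin complexes, was nearly all present, with 32 of 34 genes tested. Of these 5 were called higher (15.6%, beside 13.2% of all tested genes) and 1 lower (3.13%, beside 10.6%), and the median log2 fold change was 0.18. *Ctnnb1*, which encodes beta-catenin, had 708, 682 and 679.6 in the KSFM-Ca2+ libraries and 595, 611 and 606 in those of DKSFM (log2 fold change -0.19, SE 0.027, adjusted p = 2.25e-04 by limma). The 5 genes called higher were *Frat1*, *Frat2*, *Tle2*, *Tle3* and *Wls*, of which *Frat1* and *Frat2* entered the test through the DKSFM libraries alone. *Frat1* was listed at 0.2, 0 and 0.2 and then 1.7, 1.9 and 2.2 (log2 fold change 3.37, SE 0.43, adjusted p = 1.27e-04 by limma), and its relative *Frat2* at 0.4, 0.3 and 0.1 and then 2.5, 3.4 and 3.1 (log2 fold change 3.29, SE 0.27, adjusted p = 8.60e-06 by limma). With pseudocounts of 0.5 and 1 the log2 fold change was 2.02 and 1.42 for *Frat1* and 2.30 and 1.73 for *Frat2*. The Frat proteins bind and inhibit Gsk3. *Tle2*, a co-repressor of TCF/LEF factors, was listed at 1.4, 1.1 and 0.2 and 2.1, 2.4 and 3.2 (log2 fold change 1.81, SE 0.47, adjusted p = 0.00723 by limma), a call that was lost without DKSFM replicate 1, 2 or 3 (adjusted p = 0.0179, 0.0265 and 0.0326 by limma), without a filter and without the intensity trend; its log2 fold change was 1.36 and 1.06 with these pseudocounts. *Wls*, which carries Wnt proteins to the cell surface, had 154, 147 and 136 and 314, 309 and 305 (log2 fold change 1.09, SE 0.044, adjusted p = 1.31e-07 by limma). The gene called lower was *Tnks*, whose product marks Axin for degradation, with 11.5, 12.1 and 10.2 and 4.71, 5.34 and 5.56 (log2 fold change -1.10, SE 0.094, adjusted p = 1.07e-05 by limma). In the libraries marked as combined, with a single KSFM-Ca2+ library, and with a pseudocount of 1 it was under 2-fold (log2 fold change -0.96 and -0.98).

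Of the 23 other extracellular and membrane regulators 9 were tested, and 7 of them were called higher and none lower, beside 13.2% and 10.6% of all tested genes. *Notum*, *Lrp4* and *Gpc3* of these entered the test through the DKSFM libraries alone. *Apcdd1*, which encodes a membrane inhibitor of Wnt signalling associated with hair loss, had 0.851, 0.797 and 0.714 in the KSFM-Ca2+ libraries and 63.04, 64.4 and 63.6 in the DKSFM libraries, or 80.9-fold more (log2 fold change 6.17, SE 0.078, adjusted p = 5.47e-10 by limma; log2 fold change 5.64 and 5.18 with pseudocounts of 0.5 and 1). *Lrp4*, a receptor that binds Sostdc1, was listed at 0 in the KSFM-Ca2+ libraries but at 2.6, 3 and 3.1 in the DKSFM libraries (adjusted p = 1.69e-07 by limma). *Notum*, a secreted enzyme that inactivates Wnt proteins, was listed at 0 and at 0.9, 1.7 and 1.2 (adjusted p = 5.88e-06 by limma). *Lgr4*, a receptor for R-spondins that was likewise chosen after its values were seen, had 5.72, 5.18 and 5.35 and 55.97, 54.9 and 53.3 (log2 fold change 3.31, SE 0.055, adjusted p = 1.67e-09 by limma), in cells where all R-spondin genes were listed at 0.

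Of the 19 genes of planar cell polarity 16 were tested, with 6 called higher (37.5%, beside 13.2% of all tested genes), none lower (beside 10.6%) and a median log2 fold change of 0.21. *Dact2*, *Dact3* and *Daam2* entered the test through the DKSFM libraries alone. The lines did not overlap in 12 of the 16, beside 83.2% of all tested genes. *Dact2*, which encodes a Dishevelled-binding protein, was listed at 0.2, 0.1 and 0.1 in the KSFM-Ca2+ libraries but at 48.9, 47.3 and 44.5 in those of DKSFM (log2 fold change 7.78, SE 0.12, adjusted p = 1.22e-09 by limma). Its KSFM-Ca2+ values were at the rounding step, so no ratio is given, and pseudocounts of 0.5 and 1 gave a log2 fold change of 6.31 and 5.48. *Celsr2*, a large cadherin, had 10.2, 8.57 and 7.73 and 34.9, 32.7 and 36.1 (log2 fold change 1.96, SE 0.099, adjusted p = 4.39e-07 by limma). *Prickle2*, a cytoplasmic partner of these proteins, had 0.928, 0.797 and 0.595 and 3.10, 3.02 and 2.99 (log2 fold change 1.86, SE 0.17, adjusted p = 1.62e-05 by limma), and 1.48 and 1.19 with these pseudocounts.

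Genes often transcribed in response to beta-catenin moved in both directions. Of 17 such genes 10 were tested, 5 were called higher and 2 lower, beside 13.2% and 10.6% of all tested genes, and the median log2 fold change was 0.92. Besides *Apcdd1* and *Notum*, which this list shares with the regulators, and *Axin2* and *Rnf43*, the gene called higher was *Nkd2*, which encodes an inhibitor that binds Dishevelled. Of these 5, *Axin2*, *Rnf43*, *Nkd2* and *Notum* were under 0.5 in every KSFM-Ca2+ library and entered the test through the DKSFM libraries alone, so the count is a description. *Nkd2* was listed at 0.2, 0.3 and 0.3 in the KSFM-Ca2+ libraries but at 5.8, 5.1 and 5.7 in those of DKSFM (log2 fold change 4.04, SE 0.23, adjusted p = 9.63e-07 by limma; log2 fold change 3.04 and 2.42 with pseudocounts of 0.5 and 1). *Ccnd1*, which encodes cyclin D1, had 768, 756 and 777 and 172, 173 and 183, or 4.36-fold less in the DKSFM cells (log2 fold change -2.12, SE 0.032, adjusted p = 1.08e-09 by limma), and *Cd44* was lower too (log2 fold change -1.48, SE 0.043, adjusted p = 2.29e-08 by limma). *Lef1*, *Sp5*, *Tnfrsf19* and *Dkk1* were listed at 0 in every library. *Myc*, named here after its values were seen, had 409, 411 and 423 and 612, 596 and 644, a rise of less than 2-fold (log2 fold change 0.57, SE 0.034, adjusted p = 1.18e-06 by limma).

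**Figure D5:**
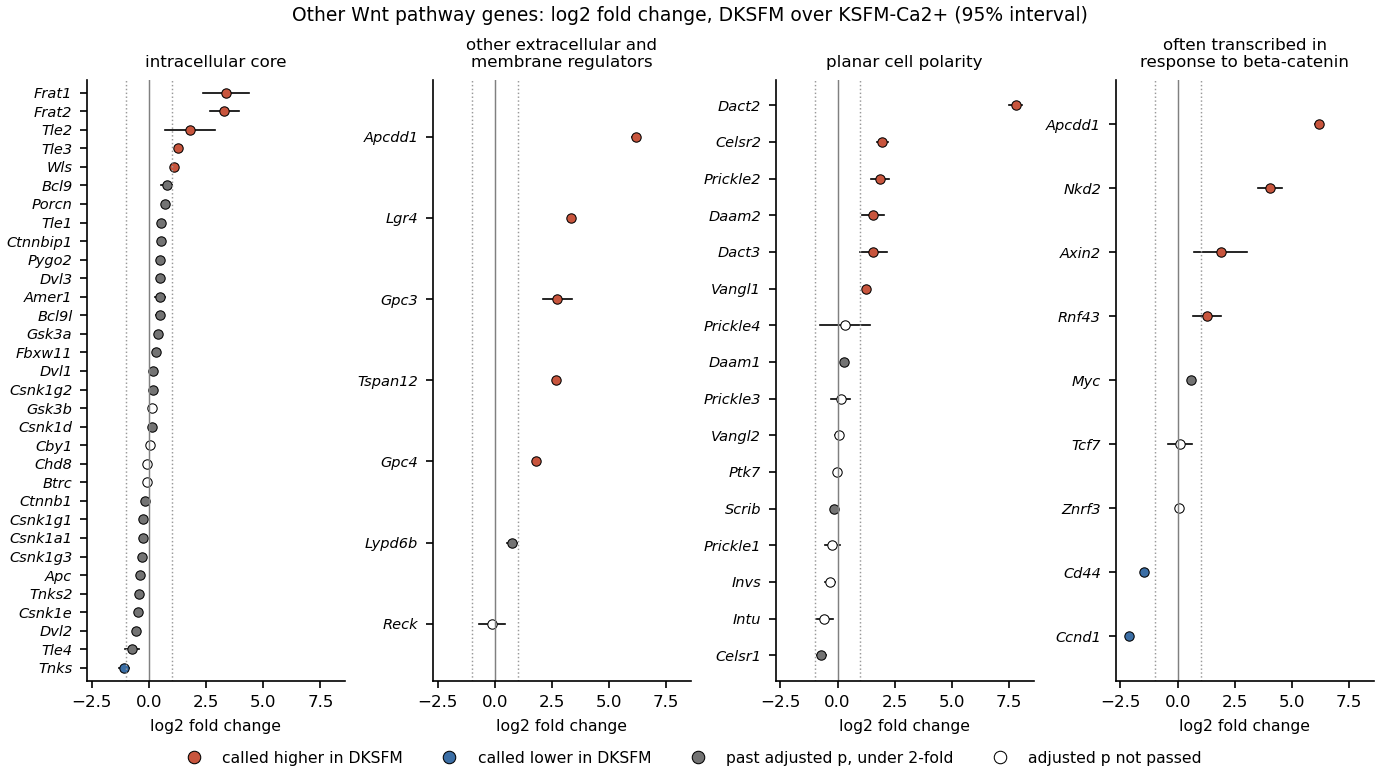
Fitted log2 fold change (DKSFM over KSFM-Ca2+, points) with its 95% interval (lines) for the tested genes of the 4 lists of other pathway genes, leaving out *Notum* and *Lrp4*, which were at 0 in the KSFM-Ca2+ libraries. Dotted lines mark 2-fold. The intracellular core stays mostly within 2-fold, from -1.10 for *Tnks* to 3.37 for *Frat1*, while *Apcdd1* and *Dact2* reach 6.17 and 7.78.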

How the data were processed

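The deposited tables hold the coverage signal of each gene as computed by the authors from reads aligned to mm10 with STAR; the authors' Salmon counts and DESeq2 results were not used, and how the coverage was computed is not stated. KSFM-Ca2+ replicate 3 and all DKSFM libraries are marked as combined in their names, without explanation. Values were scaled with unweighted TMM factors (trims 30% and 5%, factors 0.992 to 1.01). The 12450 genes at 0.5 or more in at least 3 libraries were fitted with limma, with an intensity trend, on log2(scaled value + 0.1), as planned for coverage, and p was adjusted by Benjamini-Hochberg over all of them. The Wnt genes and the other lists were chosen with earlier results of these data known. By a rule set beforehand, values are given for Wnt genes that were called and averaged 1 or more in the line where they were higher, or averaged 10 or more there, and for the 3 genes of each other list with the largest called change in each direction; *Axin2*, *Lef1*, *Sostdc1* and *Wif1* were to be given in any case. Values of other genes, such as *Rnf43*, *Fzd8*, *Ror1*, *Znrf3* and *Wnt5a*, were added outside this rule. Positions came from GENCODE M21, and sequences from RefSeq promoters on GRCm38.p6. Alternatives changed scaling, filter, pseudocount, trend, replicate block, p threshold and libraries. The software was Python 3.11.15 with matplotlib 3.10.9 for figures, and limma 3.58.1 under R 4.3.3 for tests.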

Additional observations from a re-analysis of the deposited data

How the results depend on the processing

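The 32 tested Wnt genes were followed through 16 settings. The setting with an adjusted p under 0.05 kept the main fit and only loosened the threshold, so it could lose no call. Of 503 results in these settings, 485 kept their call, 12 lost it, 6 gained it and none changed direction. For the 21 other pathway genes that were followed, all called in the main fit, 318 of 327 kept their call, 9 lost it and none changed direction. *Dact3*, also called higher in the main fit, was not among them. With a pseudocount of 0.5, 18 other pathway genes were called higher, beside 19 in the main fit. None of the 21 lost its call there, so the lost call was that of *Dact3*.

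The number of Wnt genes called higher was 12 and moved to 7 when 0.5 was asked of every library; the number of all genes called higher moved from 1648 to 1028, and that of other pathway genes from 19 to 9. With each library left out in turn, and 0.5 then asked of 2 libraries, 10 to 14 Wnt genes were called higher and 4 to 5 lower, 21 to 25 passed the adjusted p, 1608 to 1704 of all genes were called higher and 1300 to 1339 lower, and 18 to 20 other pathway genes were called higher and 3 lower. In the libraries marked as combined, a single KSFM-Ca2+ library against 3 DKSFM libraries with the spread taken from the latter, 12 Wnt genes were called higher and 3 lower, with 1641 of all 12137 genes then tested called higher and 988 lower; the Axin and ligase sum had a ratio of 1.10 and the Frizzled sum 1.73, and *Ror2* was not tested there. Pseudocounts of 0.5 and 1 each left 10 called higher and 4 lower, with 1514 and 1307 of all genes called higher and 1206 and 1030 lower.

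With a replicate block, 12 Wnt genes were called higher and 4 lower, with 1648 and 1311 of all 12450 tested genes, and *Tle2* lost its call (adjusted p = 0.0101 by limma). Differences from the line mean did not correlate between libraries of the same number (r = -0.0085, 0.0229 and -0.0205). These values cannot show whether libraries of the same number were grown or sequenced together.

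The media, the adaptation and the selection of survivors cannot be told apart, the p-values describe libraries and not animals or derivations, and coverage near the step of 0.1 is coarse. Calls were lost in some settings for *Axin2*, *Rnf43*, *Tle2*, *Tnks*, *Daam2* and *Dact3*. Among the Wnt genes, calls were gained for *Fzd2* and *Fzd8*, and for *Wnt5b* and *Fzd3* where a looser filter let them be tested. Gains among the other pathway genes were counted but not followed by gene. Without a filter 21 of them were called higher, beside 19 in the main fit, with 1967 of all 16081 genes then tested.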
